A study of Mus musculus with 15 samples.

Results

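Inhib_6 is a cluster of inhibitory neurons of the mouse prefrontal cortex (PFC) as the authors annotated them, and is described here as the Pvalb cluster. Its members were taken here as all cells that carry the deposited cluster name Inhib_6, and they number 206 of 35360 annotated cells and 206 of the 2153 cells in the 12 Inhib_ clusters. Of these, 44 of 1191 inhibitory cells came from P60 mice and 162 of 962 from P21 mice. The cells were profiled by droplet-based single-cell RNA sequencing on the 10x platform, in which each captured transcript carries a unique molecular identifier (UMI).

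The P60 samples were 12 libraries from male C57BL/6N mice aged 8 to 10 weeks, each made from the pooled PFC of 2 mice. All of these mice, controls included, had been through intravenous self-administration of either cocaine or saline, and were collected in the maintenance phase, after 48 h of withdrawal or after 15 days of withdrawal, with 2 libraries for each of the 6 combinations. The P21 samples were 3 libraries from 4 male C57BL/6N mice aged 3 weeks, for which the labels give no treatment and no self-administration phase. Tissue of 2 mice was pooled in a preparation, so P21 libraries may share animals, and p-values by age then rest in part on technical spread. The comparisons asked how Inhib_6 differed from the other inhibitory neurons, between the 2 ages, and between cocaine and saline. The P21 libraries were made apart from the P60 libraries, so age and preparation cannot be told apart.

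Parvalbumin neurons are the fast-spiking interneurons of the cortex. They arise in the medial ganglionic eminence under the transcription factors Nkx2-1 and Lhx6, fire at high rates through Kv3 potassium channels, and spend much energy doing so. Basket cells of this class contact the soma of pyramidal neurons, whereas chandelier cells contact the axon initial segment. Their inhibition matures during adolescence, when perineuronal nets form around many of them.

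The median Inhib_6 cell held 7457 UMIs at P60 and 6972 at P21, against 8102 and 6727 in the other inhibitory cells. Mitochondrial transcripts made up a median of 3.80% of UMIs at P60 and 5.51% at P21, against 2.81% and 3.49% in the other inhibitory cells. No barcode of an Inhib_6 cell was shared between libraries. Levels are given as the UMIs of a gene per 1000000 UMIs (CPM) of the summed cells, where the total leaves out genes of the mitochondrial genome and of ribosomal proteins.

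The clusters at P60 were made by the authors from the expression of these same cells, and P21 cells were given the P60 names by correlation. The levels of Inhib_6 against other clusters are therefore a description, with no test. At P60, Pvalb, which encodes the calcium buffer parvalbumin (chr15:78021544-78036830, minus strand, build NCBIM37, which is mm9), stood at 1611 CPM in Inhib_6. The next cluster was Inhib_7 at 256 CPM. At P21 the level in Inhib_6 was 1387 CPM and the next was Inhib_1 at 225 CPM. The marker thus stood in Inhib_6 at its highest level of the 12 clusters at both ages. Pvalb was the marker given for this cluster beforehand, and the deposited name Inhib_6 holds no marker.

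Not every member carried the marker. A Pvalb UMI was found in 30 of 44 cells at P60 (68.2%) and in 112 of 162 at P21 (69.1%). For comparison with free RNA in the droplets, Inhib_4, Inhib_9, Inhib_10 and Inhib_11, the 4 clusters with the highest Vip level at P60, held a Pvalb UMI in 0, 1.38, 12.9 and 10.6% of their cells at that age, with at most 1 UMI in a cell. The median cell of Inhib_9 held 5303 UMIs, that of Inhib_10 7578 and that of Inhib_11 10925. In Inhib_12, 9 of 30 cells held one, with up to 4 UMIs in a cell and a median depth above that of Inhib_6. After each cell was thinned to 2000 UMIs, the shares in Inhib_6 were 47.7% and 55.3%. The Pvalb UMIs were uneven among the P60 members, where the 5 highest cells held 63.8% of them, and less so at P21, where the 5 highest held 25.5%.

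Pvalb also varied between libraries. Since many P60 libraries held few Inhib_6 cells, they were summed into 3 units for levels, namely library 11, libraries 9 and 10, and libraries 1, 4, 7, 8 and 12. Library 11 was from saline mice and libraries 9 and 10 from cocaine mice, all after 15 days of withdrawal. The last unit mixed treatments and time points. Pvalb in these units stood at 1146, 2158 and 1309 CPM, a mean of 1538 ± 543 CPM (SD, n = 3). In P21 libraries 1 to 3 it stood at 2467, 1030 and 965 CPM, a mean of 1487 ± 849 CPM (SD, n = 3). P21 library 1 was the highest, and the ranges at the 2 ages overlapped.

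**Figure D1:**
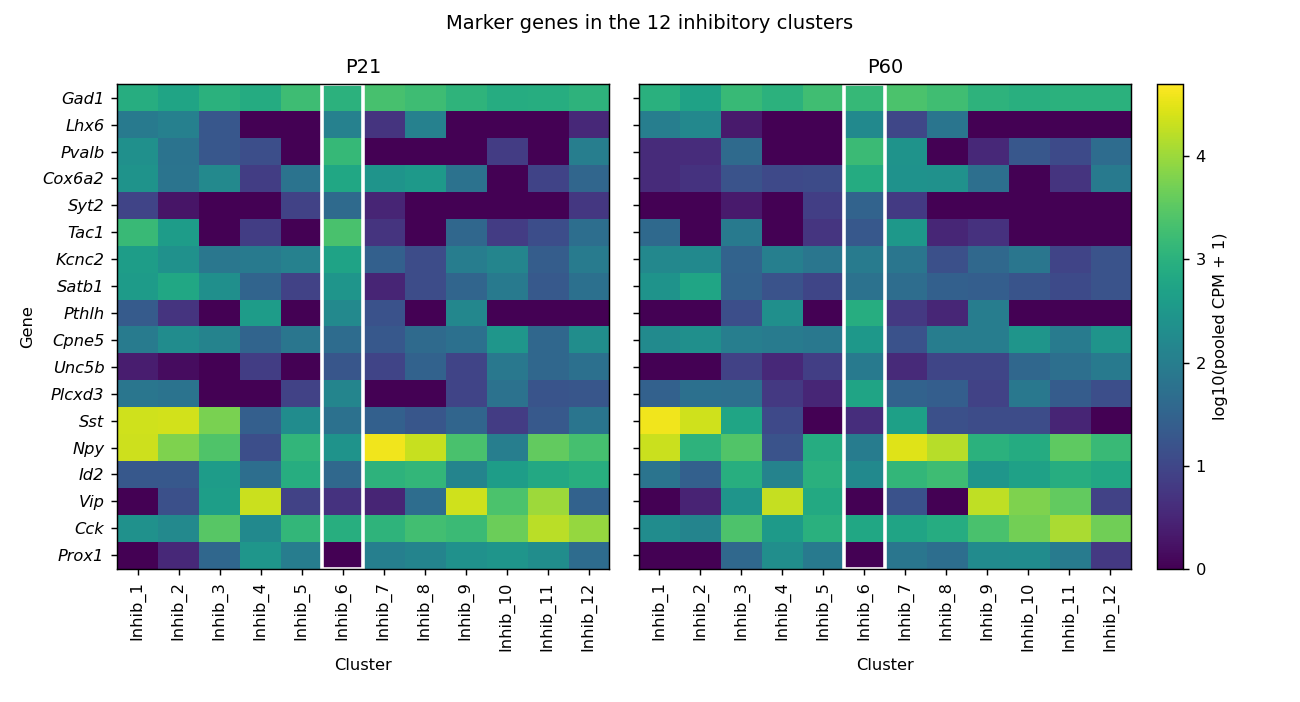
Heat map of 18 marker genes (rows) in the 12 inhibitory clusters (columns) at P21 (left) and P60 (right), coloured by log10(CPM + 1) of the summed cells, with Inhib_6 outlined in white. Pvalb stood at 1387 CPM in Inhib_6 at P21 and 1611 CPM at P60, while Tac1 stood at 2282 and 18.3 CPM and Pthlh at 163 and 836 CPM.

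At P60, 25 genes were named by a fixed rule, as those with the largest ratio to the other inhibitory cells among 2814 genes with enough UMIs. All 25 were at their highest in Inhib_6. The first was Pthlh, the gene of parathyroid hormone-like hormone (chr6:147200623-147212689, minus strand), at 836 CPM against 21.6 CPM in the other inhibitory cells and with a UMI in 40 of 44 cells. Plcxd3, a phospholipase C domain gene (chr15:4325491-4525553, plus strand), followed at 546 against 30.3 CPM. Pvalb came next by ratio.

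The other leading genes at P60 belonged to several roles. Regulators of transcription were Trps1 (192 against 16.9 CPM), Nacc2, Lhx6 and Bhlhe41. Receptors and secreted proteins were Ramp3, which is an accessory protein of calcitonin-family receptors (296 against 29.9 CPM), Igfbp4 (241 against 30.2 CPM), Unc5b, Lamb1 and Fam19a2. Cox6a2, a cytochrome c oxidase subunit known from muscle, reached 781 against 116 CPM with a UMI in 43 of 44 cells, and Tcap is also known from muscle. Myh14, a non-muscle myosin heavy chain gene, was among the 25 as well. Kcnip2, which encodes a Kv4 channel partner, stood at 97.6 against 15.4 CPM. Gm13629, at 229 against 24.9 CPM, has Scn9a on the opposite strand near its 3′ end.

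At P21 the order was different, and 9 of the 25 leading genes were shared with P60. Pvalb came first, at 1387 against 68.4 CPM in the other inhibitory cells. Lpl, encoding lipoprotein lipase, stood at 108 against 8.58 CPM, Tcap at 312 against 26.7 CPM and Kcnip2 at 168 against 23.1 CPM. Tac1, the precursor of substance P (chr6:7505071-7512973, plus strand), had rank 9 at 2282 against 404 CPM. The peptide gene Cartpt reached 1277 against 275 CPM. Pthlh had rank 6 at 163 against 25.5 CPM.

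Of all genes with at least 20 UMIs in Inhib_6, 18.6% at P60 (553 of 2975) and 11.4% at P21 (719 of 6298) were at their highest there among the 12 clusters. These shares are the background for the gene lists below, of which the members with fewer UMIs are not like for like with it, so the counts of members with at least 20 UMIs are given too. Of the genes of the medial ganglionic eminence lineage, Lhx6 stood at 168 CPM at P60 and 116 CPM at P21, the highest of the 12 clusters at both ages. None of 6 genes of the caudal ganglionic eminence lineage (Prox1, Adarb2, Htr3a, Nr2f2, Npas1, Sp8) had a UMI in the 44 P60 cells, and their summed level at P21 was 1.92 CPM. Sst stood at 3.05 CPM at P60 and 54.8 CPM at P21, and Vip at 0 and 3.85 CPM.

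Genes of fast-spiking basket cells were high at both ages. At P60, 9 of 12 list members were at their highest in Inhib_6, and at P21 all 12 were. With at least 20 UMIs the counts were 7 of 9 and 12 of 12. Kcnc1, the Kv3.1 channel, stood at 424 CPM at P60 and 565 CPM at P21, Syt2, a synaptotagmin of fast inhibitory terminals, at 30.5 and 41.3 CPM, and Erbb4, the neuregulin receptor, at 247 and 383 CPM. The 3 exceptions at P60 were Kcnc2, Kcna1 and Tac1.

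The list written for chandelier cells split by age. All 5 of its genes (Pthlh, Vipr2, Cpne5, Unc5b, Nkx2-1) were at their highest in Inhib_6 at P60, with a summed level of 1276 CPM against at most 351 CPM in any other cluster. None of the 5 was highest there at P21, where the sum was 230 CPM and Inhib_6 had rank 4. Vipr2 and Nkx2-1 rested on 5 and 8 UMIs at P60, and with at least 20 UMIs the counts were 3 of 3 and 0 of 2. Unc5b was near a tie at P60, at 82.4 CPM on 27 UMIs against 81.4 CPM in Inhib_12. Pthlh in Inhib_4 stood at 221 CPM at P60 and 399 CPM at P21, against 836 and 163 CPM in Inhib_6.

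Energy metabolism genes were high in Inhib_6 at both ages, with 9 of 12 members at their highest at P60 and 11 of 12 at P21, all with at least 20 UMIs. Their summed level was 19975 CPM at P60, where the other clusters ran from 11810 to 15391 CPM, and 23016 CPM at P21, where they ran from 12433 to 17603 CPM. Ppargc1a, the coactivator of mitochondrial biogenesis, stood at 186 and 339 CPM. All 4 neurofilament genes were at their highest at P60 and 3 of 4 at P21 (3 of 3 at each age with at least 20 UMIs), with Nefl at 235 and 161 CPM.

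Other parvalbumin-associated genes were barely captured. Acan, the aggrecan of perineuronal nets, had 1 UMI at P60 and 4 at P21. Of the 8 net genes, 3 were at their highest in Inhib_6 at P60 and 2 at P21, and their summed level had rank 6 and rank 9 of 12. With at least 20 UMIs the counts were 1 of 1 and 0 of 4. Drd2 had no UMI at either age, and Drd1 had 2 UMIs at P60 and 16 at P21.

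Traces of other cell types were present. Of the 206 cells, 8 carried another broad class in the authors' table. The 3 classed as excitatory held 210 CPM of Gad1 and of Slc17a7 and no Pvalb. The 5 classed as microglia, all from P21, held 1569 CPM of Gad1, 923 CPM of Pvalb and 1753 CPM of C1qb. In Inhib_6 as a whole the 6 excitatory markers summed to 207 CPM at P60 and 72.1 CPM at P21, the 5 astrocyte markers to 427 and 156 CPM and the 4 microglia markers to 15.3 and 85.6 CPM. The authors removed cells with unusually many genes as likely double droplets, and further ones by manual assessment after clustering.

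The members at the 2 ages differed in the genes they combined. A Pthlh UMI was found in 40 of 44 cells at P60 (90.9%, exact 95% interval 78.3 to 97.5%) and in 63 of 162 at P21 (38.9%, 31.3 to 46.9%). Tac1 went the other way, with 3 of 44 cells at P60 (6.82%, 1.43 to 18.7%) and 110 of 162 at P21 (67.9%). These intervals cover counting error only. After thinning, the shares were 68.2% and 19.3% for Pthlh and 2.27% and 59.6% for Tac1.

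At P60, 37 cells held Pthlh alone, none held Tac1 alone, 3 held both and 4 neither. At P21, 28 held Pthlh alone, 75 Tac1 alone, 35 both and 24 neither. The 3 P21 libraries resembled each other, since Pthlh was found in 44.8%, 36.0% and 38.6% of their cells and Tac1 in 65.5%, 72.0% and 66.3%.

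**Figure D2:**
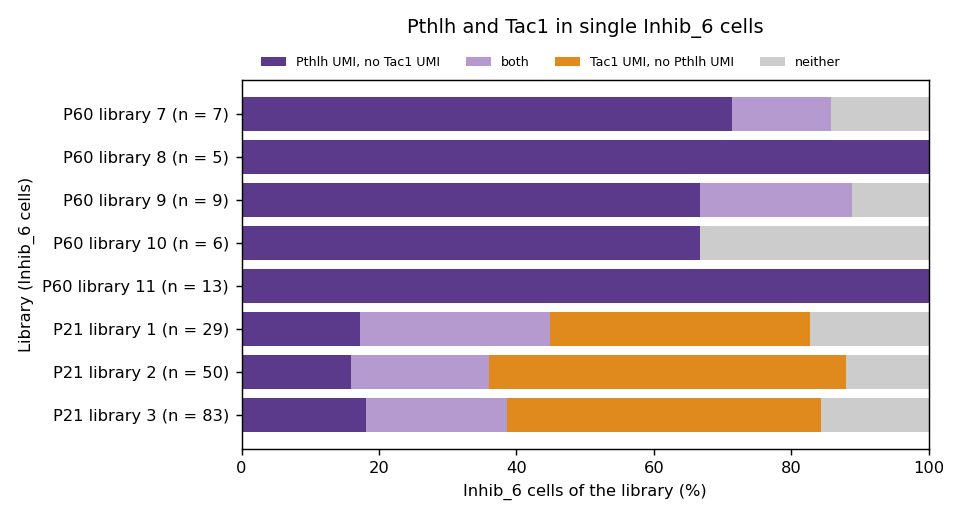
Stacked bars of the Inhib_6 cells of each library with a UMI of Pthlh alone, both genes, Tac1 alone or neither, as a percent of the library's Inhib_6 cells, for the 3 P21 libraries and the 5 P60 libraries with at least 5 such cells. Cells with Tac1 alone made up 37.9% to 52.0% of the P21 libraries and 0% of the P60 libraries, where cells with Pthlh alone made up at least 66.7%.

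Within P21, the 28 cells with Pthlh and no Tac1 differed from the 75 with Tac1 and no Pthlh in other genes too. Plcxd3 stood at 460, 352 and 457 CPM in the Pthlh cells of P21 libraries 1 to 3 and at 50.7, 97.6 and 116 CPM in their Tac1 cells. The sets did not overlap.

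Other genes went the opposite way. Gabrb2, the beta2 subunit of the GABA-A receptor, stood at 81.2, 352 and 214 CPM in the Pthlh cells and at 537, 468 and 713 CPM in the Tac1 cells, without overlap. Kcnc2, the Kv3.2 channel, averaged 219 ± 34.5 against 592 ± 55.4 CPM and the chromatin organizer Satb1 51.5 ± 22.2 against 320 ± 59.9 CPM (SD, n = 3 libraries each). Pvalb itself averaged 916 ± 117 and 1179 ± 523 CPM, and its ranges overlapped. The Pthlh cells of these libraries numbered 5, 8 and 15, and since the genes were chosen with their values known these differences carry no test.

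Some P60 cells with the other combination were in another cluster. Of 53 P60 inhibitory cells with at least 3 Pvalb UMIs, 19 were in Inhib_6 and 30 in Inhib_7, while at P21 78 of 102 were in Inhib_6 and none in Inhib_7. The 30 Inhib_7 cells came from 8 libraries and summed to 2155 CPM of Tac1 and 32.2 CPM of Pthlh. Their 3078 CPM of Pvalb follows from how they were chosen. Their Satb1 level was 258 CPM and their Kcnc2 level 365 CPM, against 58.0 and 88.5 CPM in all 44 P60 Inhib_6 cells. Of those 44 cells, 14 held no Pvalb UMI, so the sets are not like for like. Across 9512 genes the P21 profile of Inhib_6 was most like that of P21 Inhib_1 (Pearson r = 0.923 across genes of log levels) and had r = 0.883 with P60 Inhib_6, where the profiles also differ in preparation. Among the P60 clusters Inhib_6 was the closest to it, followed by Inhib_7 at 0.877, and the closest profile to P60 Inhib_6 was that of P21 Inhib_6.

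Inhib_6 formed a larger part of the inhibitory neurons at P21. It made up 10.0%, 16.6% and 22.4% of them in P21 libraries 1 to 3. In the 6 P60 saline libraries it made up 0, 0, 0, 6.42, 6.37 and 1.39%. The 3 libraries with no member held 19, 28 and 59 inhibitory cells, where a limit of 3 cells for a count of 0 allows shares of up to 15.8%, 10.7% and 5.08% and the exact 95% upper bounds are 17.6%, 12.3% and 6.06%. The groups did not overlap.

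The mean was 16.3% ± 6.19 (SD, n = 3) at P21 and 2.36% ± 3.17 (SD, n = 6) in P60 saline, a difference of 14.0 percentage points with p = 0.0119 in a two-sided exact permutation test, which is the smallest p that 84 splits can give. As a part of all neurons the means were 2.47% and 0.195%. The share of Inhib_7 averaged 8.25% at P21 and 31.5% in P60 saline. Most of its cells were not Pvalb cells, since 350 of 392 at P60 had no Pvalb UMI and stood at 32774 CPM of Npy, 1435 CPM of Id2 and 3.29 CPM of Lhx6. In an exact permutation test chosen after the data were seen, its p was 0.0119, again the smallest possible. The names at P21 rest on the authors' correlation with P60 clusters, and its part in these shares was not tested.

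**Figure D3:**
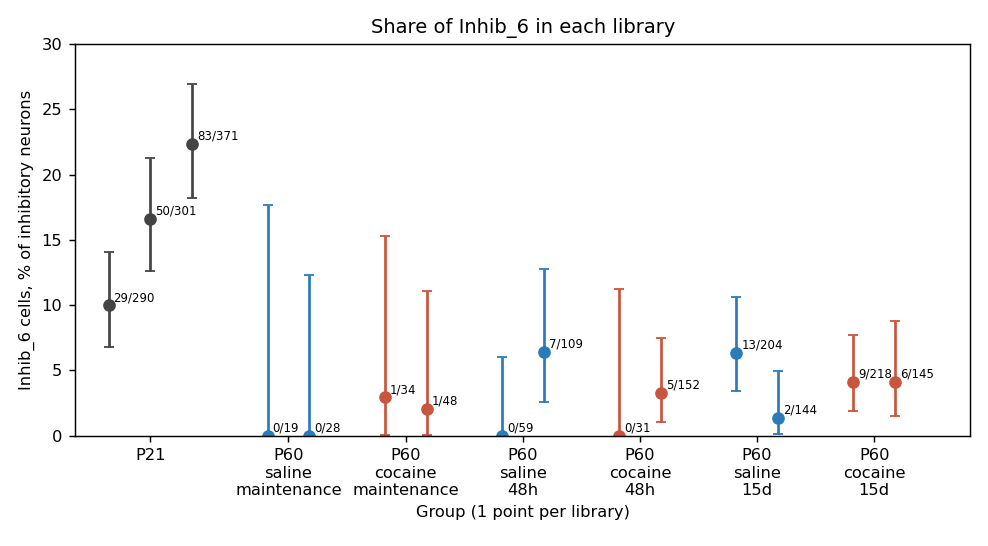
Inhib_6 as a percent of the inhibitory neurons in each of the 15 libraries, by group, with exact 95% binomial intervals as bars and the cells counted beside each point. The 3 P21 libraries lie at 10.0% and above, and all 12 P60 libraries lie at 6.42% or below.

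Cocaine and saline libraries did not differ detectably in this share. The 6 cocaine libraries held 2.94% and 2.08% in the maintenance phase, 0 and 3.29% after 48 h of withdrawal and 4.13% and 4.14% after 15 days, a mean of 2.76% ± 1.56 (SD, n = 6) against 2.36% ± 3.17 in saline. The difference of 0.399 percentage points had p = 0.852 when labels were exchanged within time points in an exact permutation test, where the smallest possible p was 0.00926. In the cocaine library without a member, 0 of 31 inhibitory cells allows up to 9.68% by the limit of 3 cells.

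The change of gene levels with age was then measured with the 3 P21 libraries against 2 P60 saline units, library 11 with 13 cells and libraries 7 and 12 summed with 9 cells. With edgeR's quasi-likelihood test, 151 of 5013 tested genes passed an adjusted p of 0.05 with at least a 1.5-fold difference (3.01%). Of these, 53 were higher at P60 (1.06%) and 98 lower (1.95%), with a median log2 fold change over all tested genes of -0.03. P-values measure the spread between these few pools.

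Pthlh stood at 154, 130 and 193 CPM in the P21 libraries and at 1132 and 979 CPM in the P60 units. It was higher at P60 by a log2 fold change of 2.70 ± 0.22 (SE; edgeR adjusted p = 9.52e-08). Plcxd3 stood at 119, 136 and 150 CPM at P21 and at 587 and 639 CPM at P60, a log2 fold change of 2.16 ± 0.23 (edgeR adjusted p = 1.02e-05). The ages did not overlap for either gene. Plcxd3 also separated the Pthlh cells from the Tac1 cells within P21.

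The 10 genes with the largest rise at P60 reached from a log2 fold change of 2.53 to 4.15. They held channel genes, namely Cacna2d3, a calcium channel subunit (4.15 ± 0.85, from a mean of 5.09 to 95.3 CPM), and Trpc5, a cation channel (3.93 ± 0.84). Secreted or peptide-processing members were Lamb1, a laminin chain (3.10 ± 0.69), Pcsk2, a prohormone convertase (2.99 ± 0.50), Pthlh and Fstl5 (2.53 ± 0.48). Cpne5, a calcium-dependent membrane-binding copine (chr17:29293495-29374742, minus strand), stood at 50.3, 22.2 and 58.3 CPM at P21 and at 368 and 286 CPM at P60, a log2 fold change of 2.85 ± 0.36. Enc1, 1300014I06Rik and A830036E02Rik completed the set. Pthlh and Cpne5 passed the test without each library in turn, whereas A830036E02Rik, with an edgeR adjusted p of 0.049, passed in 2 of 6 such fits. Trpc5, Enc1 and Cacna2d3 had enough UMIs to be tested in only 1, 2 and 4 of the 6.

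Tac1 was the gene with the largest fall. It stood at 1763, 3374 and 1833 CPM in the P21 libraries and at 0 and 13.6 CPM in the P60 units, where a single UMI was found. The ratio of P21 to P60 was 335 with an exact counting interval of 60.1 to 13240 (edgeR adjusted p = 6.79e-04). Rbp4, the retinol-binding protein gene (chr19:38191110-38199811, minus strand), stood at 862, 1074 and 792 CPM at P21 and had 1 UMI at P60, a ratio of 132 (23.6 to 5203). Its log2 fold change ran from -10.68 to -6.07 in the 6 fits that left out a library, where the fit without library 11 held a single P60 unit.

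Igsf3, Yeats4 and Abhd2 had no UMI in either P60 unit. Set against a floor of 3 UMIs over the group, they were at least 4.21-fold, 3.90-fold and 3.51-fold lower at P60, and the fitted fold changes of these genes are not bounds. Tmem91, Gm13205 and Sacm1l had 1 UMI each at P60, with P21 to P60 ratios of 22.2, 18.8 and 11.4 and counting intervals of 3.92 to 881, 3.31 to 747 and 2.00 to 457. Without library 11 their fitted log2 fold changes were -3.49, -3.27 and -2.54, where Gm13205 and Sacm1l did not pass, and without library 7 they were -8.10, -7.88 and -7.15. Rpp25, an RNase P subunit gene, and Rasgrf2, a Ras exchange factor, had 2 UMIs each and ratios of 12.2 and 10.4 (3.33 to 102 and 2.84 to 87.1). All 8 genes were lower at P60 by edgeR, with adjusted p from 0.00265 for Tmem91 to 0.0374 for Sacm1l. With all 12 P60 libraries Sacm1l had a log2 fold change of -1.32 and did not pass (edgeR adjusted p = 0.101), while the others passed.

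**Figure D4:**
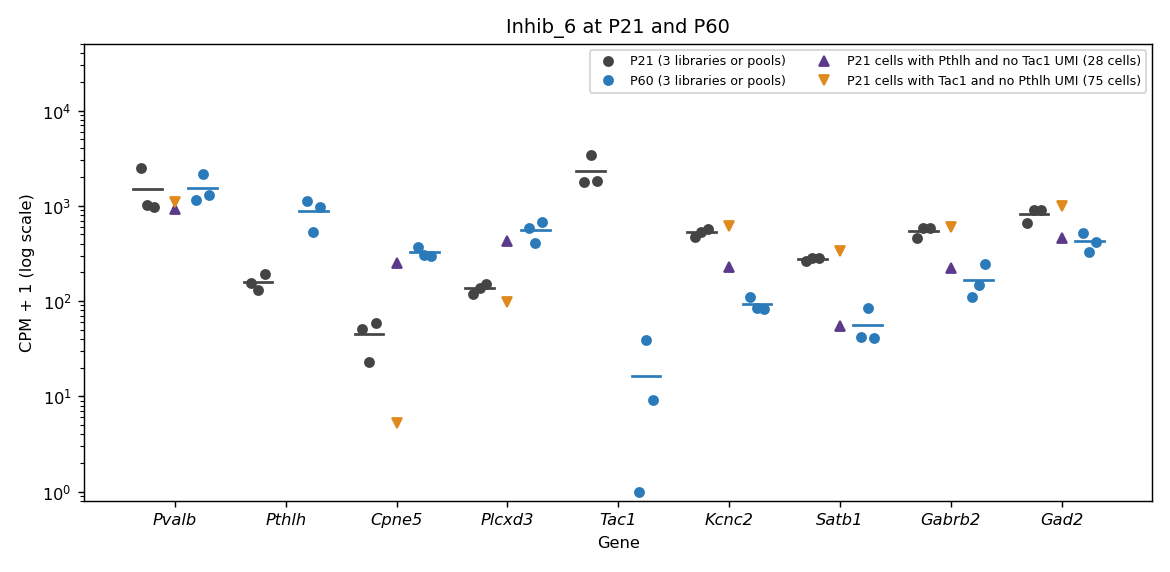
Levels of 9 genes in Inhib_6 as CPM + 1 on a log axis, with circles for the 3 P21 libraries and the 3 units of all P60 libraries (library 11, libraries 9 and 10, and the other 5 with members), lines for their arithmetic means, and triangles for the summed P21 cells with a UMI of Pthlh or of Tac1 alone (not drawn for Pthlh and Tac1). The P60 units of Plcxd3 lie at 406 CPM and above and the P21 libraries at 150 CPM and below, with the P21 Pthlh cells at 428 CPM and the P21 Tac1 cells at 96.1 CPM.

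Pvalb did not pass the test. It stood at 2467, 1030 and 965 CPM at P21 and at 1146 and 979 CPM at P60, a log2 fold change of -0.49 ± 0.61 (edgeR adjusted p = 0.771), and the ages overlapped. Of the 11 tested genes of the fast-spiking basket list, none rose and 3 fell at P60, namely Tac1, Kcnc2 and Cplx1, a complexin of the release machinery, beside 1.95% of all tested genes that fell. The median log2 fold change of the list was -0.49, beside -0.03 over all genes. Kcnc2 averaged 525 ± 47.2 CPM at P21 (SD, n = 3) and stood at 109 and 95.2 CPM at P60 (-2.37 ± 0.30, edgeR adjusted p = 9.53e-05). In the other inhibitory neurons Tac1 and Kcnc2 were called lower at P60 too (-1.39 ± 0.21 and -1.18 ± 0.17), and Cplx1 was not called (-0.32 ± 0.11). The change in Inhib_6 minus that in the others did not pass for any of the 3 (edgeR interaction, adjusted p = 0.0619, 0.130 and 0.381).

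Of all tested genes, 1.06% rose and 1.95% fell. Of 3 tested genes of the chandelier list, Cpne5 and Pthlh rose, and the third, Unc5b, averaged 16.5 CPM at P21 and 95.4 CPM at P60 without passing. The median of the list was 2.70. In the MGE lineage list Maf rose (1.14 ± 0.30) and Satb1 fell (-3.32 ± 0.46) among 5 tested. Id2 (2.49 ± 0.38) rose in the Lamp5 and neurogliaform list, from 37.4 to 218 CPM, and Calb1 fell in the Sst list, each as 1 of 2 tested. In the other inhibitory neurons Satb1 (-1.89 ± 0.15) and Calb1 (-2.66 ± 0.22) were called lower at P60 too. Maf (0.10 ± 0.16) and Id2 (1.64 ± 0.37, edgeR adjusted p = 0.0624) were not called there. The change in Inhib_6 minus that in the others did not pass for Satb1 or Calb1 (edgeR interaction, adjusted p = 0.329 and 0.983). Nor did it pass for Maf or Id2 (edgeR interaction, adjusted p = 0.339 and 0.813).

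Of 8 tested genes of the inhibitory terminal list, Gad2 and Cplx1 fell at P60 and none rose, beside 1.95% and 1.06% of all tested genes. The median log2 fold change of the list was -0.20, beside -0.03 over all genes. Gad2, which makes GABA at terminals, had -0.95 ± 0.24, and Gad1 was not called. Gabrb2 stood at 463, 580 and 588 CPM in the P21 libraries and at 109 and 231 CPM in the P60 units, a log2 fold change of -1.69 ± 0.29 (edgeR adjusted p = 0.00244). The ages did not overlap for Gabrb2.

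Of 10 tested genes of immature neurons, 3 fell at P60 and none rose, beside 1.95% of all tested genes that fell. In the other inhibitory neurons 5 of 10 fell, beside 5.93% of all genes, and the median log2 fold changes of the list were -0.74 and -0.86. Marcksl1 went from a mean of 162 to 27.2 CPM, Stmn1 from 2810 to 1328 CPM and Stmn2 from 2004 to 1097 CPM. With all 12 P60 libraries Stmn1 had -0.57 ± 0.42 and did not pass (edgeR adjusted p = 0.512). None of 12 energy metabolism genes, 7 glutamate receptor genes, 6 immediate early genes or 3 neurofilament genes passed. The perineuronal net list had 2 tested members, neither called, and the dopamine and opioid list none.

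With all 12 P60 libraries in place of the saline ones, 265 of 3636 genes passed in edgeR (7.29%), 126 higher at P60 (3.47%) and 139 lower (3.82%). All 3 tested genes of the chandelier list then rose, Unc5b included, and Sox6, Ppargc1a, Cycs and the oligodendrocyte marker Mbp (-1.89 ± 0.55) joined the genes that fell in their lists, while Stmn1 left them. With the saline units no excitatory, astrocyte, oligodendrocyte or microglia marker passed. The summed level of the 6 excitatory markers ran from 150 to 283 CPM in the P60 units and from 34.8 to 108 CPM in the P21 libraries, that of the 5 astrocyte markers from 145 to 1269 and from 105 to 231 CPM, and that of the 5 oligodendrocyte markers from 8.08 to 109 and from 141 to 238 CPM. Microglia markers ran from 7.65 to 24.2 and from 21.5 to 123 CPM, with Csf1r, and of the oligodendrocyte markers Mog and Aspa, at 0 in P60 cells. The ranges overlapped for astrocyte and microglia markers and not for the other 2 lists, and the part of these cells in the age results was not tested. Without the 8 cells of another class, 143 genes passed by age.

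Since the Pthlh share of the members differed between ages, the comparison was repeated on cells with a Pthlh UMI and no Tac1 UMI, with all P60 libraries, a choice made after the data were seen. It held fewer cells, and 1773 genes were tested. Of these, 31 passed in edgeR (1.75%), 18 higher (1.02%) and 13 lower (0.733%) at P60. Plcxd3, at 428 CPM in the P21 set and 648 CPM in the P60 set, had a log2 fold change of 0.61 ± 0.25 (edgeR adjusted p = 0.247). Gabrb2 had -0.56 ± 0.44 (edgeR adjusted p = 0.635). Cpne5 and Gad2 did not pass either, and Kcnc2 had -1.49 ± 0.42 (edgeR adjusted p = 0.0532).

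A few genes did pass within the Pthlh cells. Pcsk2 rose by 2.62 ± 0.68 on the log2 scale. Cartpt fell by 4.60, and stood at 728 and 276 CPM in the P21 units against 13.6, 33.7 and 9.41 CPM in the P60 units (edgeR adjusted p = 7.21e-06). Cort, the cortistatin gene, fell by 2.23, Marcksl1 by 3.21 and Stmn2 by 0.85. Higher at P60 were also Ass1, the arginine-synthesis enzyme (2.91 ± 0.58), and Fdps of the isoprenoid pathway (2.07 ± 0.48). Gapdh was called higher as well, but all 31-base words of its 3′ end occur in other genes, so its counts are uncertain.

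The other inhibitory neurons of the same libraries changed with age too, with 1010 of 9969 genes called in edgeR (10.1%), 419 higher at P60 (4.2%) and 591 lower (5.93%). These cells were a different mix of clusters at each age, since Inhib_2 made up 341 of 800 and Inhib_7 76 of 800 at P21, against 112 and 392 of 1147 over all P60 libraries. A change within a cluster and a change in the mix cannot be told apart in this count or in the interaction. Markers of other cell types moved in this group too. All 5 astrocyte markers were called higher at P60, from 0.65 ± 0.14 for Slc1a2 to 3.21 ± 0.71 for Aqp4 on the log2 scale. Of 4 tested excitatory markers Neurod6 rose (2.41 ± 0.25), and of 2 tested microglia markers C1qb fell (-1.28 ± 0.33). No oligodendrocyte or endothelial marker passed. The part of such cells in the count and in the interaction was not tested. The difference between the change in Inhib_6 and the change in the others was tested as an interaction, and 42 of 9692 genes passed in edgeR (0.433%), with 21 in each direction (0.217%). With the library or pool as a block, since both cell groups came from the same libraries, 119 passed, 52 higher and 67 lower. The split also moved with other settings, to 35 and 16 with DESeq2 and to 21 and 47 against Inhib_7 alone. The median difference over all genes was -0.17.

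Cpne5 was among the genes that rose with age in Inhib_6 relative to the others. Its level in the other inhibitory neurons was 134 ± 25.5 CPM at P21 and 82.5 ± 20.2 CPM at P60 (SD; n = 3 and 2), and the difference of the log2 changes was 3.44 ± 0.43 (edgeR adjusted p = 2.20e-04). Cacna2d3 (5.14 ± 0.73) behaved alike, with a mean of 77.4 CPM at P21 and 38.8 CPM at P60 in the others. Further genes of this direction were 1300014I06Rik, Anxa2, Trpc5, Fstl5, Enc1, Ache and Adcy2.

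Adcy2, an adenylyl cyclase gene, rested on 1 unit. Its P60 level was 0 CPM in library 11 and 109 CPM in libraries 7 and 12, and without library 7 the difference turned from 5.03 to -3.23. The difference of Enc1 went from 2.93 to 1.84 without library 7, and that of Trpc5 from 3.27 to 1.75 without library 11, and neither passed there. Anxa2 rested on 3 UMIs at P21 and 8 at P60.

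Gabrb2, Gabra4 and Gabbr2 had negative differences. Gabrb2 had a difference of -2.06 ± 0.30 (edgeR adjusted p = 4.84e-04), with a level in the others of 361 ± 23.2 CPM at P21 and 435 ± 49.1 CPM at P60 (SD; n = 3 and 2). Gabra4, another GABA-A receptor subunit, had a difference of -2.42 ± 0.52, on 4 UMIs at P60. Its own change in Inhib_6 did not pass (-1.63 ± 0.57, edgeR adjusted p = 0.123), and with all 12 P60 libraries that change was -0.53 and the difference -1.19, neither of which passed. Gabbr2, a GABA-B receptor subunit, stood at 205, 244 and 238 CPM at P21 and 40.9 and 54.4 CPM at P60 in Inhib_6. Its log2 fold change there was -2.26 ± 0.40 (edgeR adjusted p = 0.00273), and the difference from the others was -2.70 ± 0.39. Gad2 also passed (-1.45 ± 0.27).

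Rbp4 (-4.29 ± 0.68), Rasgrf2 (-3.92 ± 0.55), the nociceptin precursor Pnoc (-3.30 ± 0.59) and Sema5a (-4.26 ± 0.92) had differences of the same sign. Pnoc stood at 76.8 CPM at P21 and 20.4 CPM at P60 in Inhib_6, but at 290 and 716 CPM in the other inhibitory neurons. Il1rap, Actr6 and Igsf3 had no UMI in the P60 saline units of Inhib_6. Set against a floor of 3 UMIs, their levels in these units were at least 1.68-fold, 2.32-fold and 4.21-fold lower than at P21. The change of Actr6 in Inhib_6 alone did not pass with the saline units (edgeR adjusted p = 0.0545). With all P60 libraries its log2 fold change there was 0.04 (edgeR adjusted p = 0.968), and that of Igsf3 was -2.73 (edgeR adjusted p = 0.00589). The part of the Pthlh and Tac1 cells in the differences from the other inhibitory neurons was not tested in the interaction fit.

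**Figure D5:**
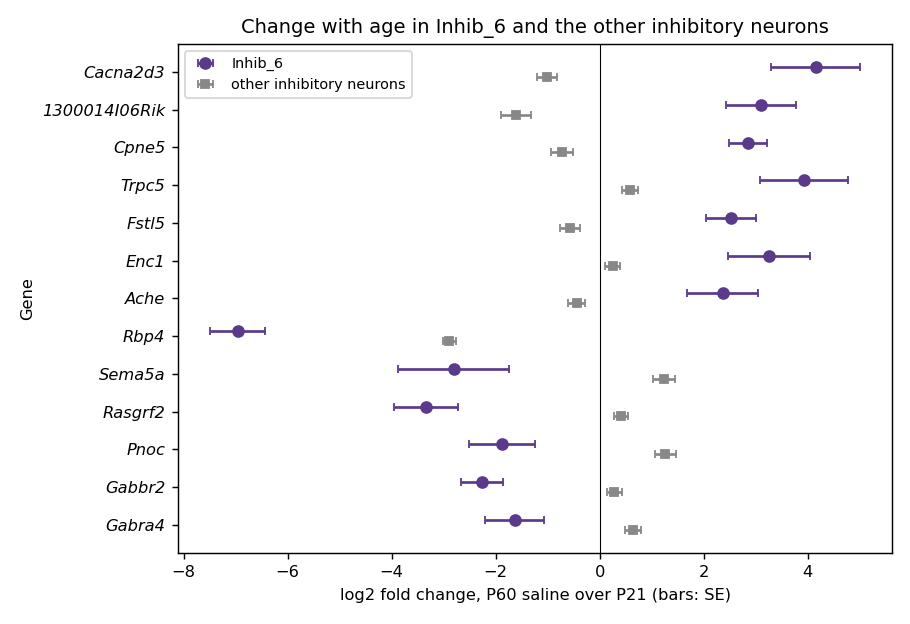
Log2 fold change from P21 to P60 saline (horizontal axis) in Inhib_6 (circles) and in the other inhibitory neurons (squares), with standard errors as bars, for 13 of the 18 named genes of the interaction (rows). The other 5 genes had no standard error or were not tested in Inhib_6 alone. Cpne5 stood at 2.85 in Inhib_6 and -0.72 in the others, and Gabbr2 at -2.26 and 0.28.

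Cocaine and saline were compared in 4 pools, with 7 cells for saline and 5 for cocaine after 48 h and 15 cells for each after 15 days. The maintenance phase held 2 cocaine cells and no saline cell, and was left out. With time as a covariate 1 residual degree of freedom was left. In edgeR, 2 of 1492 genes passed, both higher with cocaine (0.134%), and none was lower.

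Pvalb stood at 1145 CPM in saline and 2418 CPM in cocaine after 48 h, and at 1003 and 2158 CPM after 15 days. Both cocaine pools were higher than both saline pools, with a log2 fold change of 1.08 ± 0.21 (edgeR adjusted p = 3.91e-04). A single cell supplied 84 of the 89 Pvalb UMIs of the 48 h cocaine pool, and the median cell held 1 UMI there and 2 in its saline counterpart. The adjusted p in edgeR was 0.189 without library 11, 0.233 without library 12 and 0.258 without library 10, and with DESeq2 it was 1.00. The log2 fold change ran from 0.84 to 1.38 without each library. In the other inhibitory neurons Pvalb stood at 156 and 297 CPM in the saline and 7.08 and 128 CPM in the cocaine libraries after 48 h, and at 163 and 45.5 against 70.1 and 34.8 CPM after 15 days.

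Cox5a, a cytochrome c oxidase subunit gene, stood at 115 and 217 CPM after 48 h in saline and cocaine, and at 233 and 1010 CPM after 15 days (1.79 ± 0.36, edgeR adjusted p = 3.91e-04). The high values came from libraries 9 and 10, at 1059 and 927 CPM, whereas the other 6 libraries with members ran from 115 to 564 CPM. Libraries 9 and 10 were all the cocaine libraries after 15 days, so treatment and library cannot be told apart in these values. The other inhibitory neurons of libraries 9 and 10 also held 772 and 637 CPM of Cox5a, against 106 to 322 CPM in the other 10 P60 libraries. Its adjusted p in edgeR was 0.804 without library 9, 0.335 without library 7, and 0.189 and 0.233 without libraries 11 and 12, while its log2 fold change ran from 1.58 to 2.61. Of the 12 energy metabolism genes tested, Cox5a alone passed, beside 0.134% of all tested genes, and the list's median was -0.04 beside -0.01 over all genes. Of the immediate early genes, Fos alone was tested, at a log2 fold change of -0.67 that did not pass.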

How the data were processed

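Deposited UMI counts per gene and cell, made by the authors with Cell Ranger (given as version 13.1 in the submitters' processing notes) on mm9 and clustered with Seurat 2.1.0, were read with the authors' table of cell classes and clusters. The deposited mitochondrial fraction of each cell was computed by the authors from its UMIs. The authors removed cells with few genes, unusually many genes or many mitochondrial reads. The annotated libraries held 1055 to 4439 cells. The members and gene lists were chosen with earlier results of these data known.

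Counts of Inhib_6 cells were summed per library, and libraries under 10 cells were pooled within group, with pools still under 10 cells merged within age, across time points and, where all P60 libraries were used, across treatments. The pool of libraries 7 and 12, from 2 time points, held 9 cells and was kept. Cocaine and saline pools were made within treatment and time. Library totals and tests omitted 13 mitochondrial genes and 143 genes of ribosomal proteins. Sums were tested with edgeR 4.0.16 (TMM, filterByExpr, glmQLFit, glmQLFTest, Benjamini-Hochberg adjustment) and, as an alternative, DESeq2 1.42.0. A call needed an adjusted p under 0.05 and a fold of 1.5. Genes named were the 10 with the largest change in each direction, the 25 leading genes by cluster ratio, and members of fixed lists, and other genes named were chosen after their values were seen. Shares were compared with exact permutation tests. Lamp5, Ndnf and Drd1 were found under older symbols, and Scn8a and Sox4, each listed under 2 identifiers, were left out. The scripts were tested on simulated data with genes changed 2-fold. The calls recovered 16.5% of these genes in the age fit, 26.9% in the cocaine fit and 1.07% in the interaction. A gene that was not called may therefore still differ. The labels name the nucleus accumbens as tissue in 1 field and the PFC in the titles. Some genes that these rules named, and the list of GABA-A receptor genes as a whole, are not reported here.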

Additional observations from a re-analysis of the deposited data

Results flagged for a closer look

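For 18 named genes, the change from P21 to P60 in Inhib_6 differed from that in the other inhibitory neurons by the interaction term in edgeR. The values are differences of log2 fold changes. Positive differences were found for Cacna2d3 (5.14), Adcy2 (5.03), 1300014I06Rik (4.61), Anxa2 (4.52), Cpne5 (3.44), Trpc5 (3.27), Fstl5 (2.97), Enc1 (2.93) and Ache (2.70). Ufsp1 lies within 1000 bases of the 3′ end of Ache on the same strand. Negative differences were found for Il1rap (-9.28), Actr6 (-9.09), Igsf3 (-8.59), Rbp4 (-4.29), Sema5a (-4.26), Rasgrf2 (-3.92), Pnoc (-3.30), Gabbr2 (-2.70) and Gabra4 (-2.42). The first 3 of these had no UMI in the P60 saline units, so their values depend on the prior count of the fit. Of the 18, Cacna2d3 alone passed without each of the 6 libraries in turn, the other 17 lost the call in at least 1 of these fits, and Igsf3 passed in none. Without each library Trpc5 ran from 1.75 to 4.30, Enc1 from 1.84 to 3.51, Rbp4 from -9.45 to -3.44 and Sema5a from -9.83 to -3.53. All 18 passed with the library as a block. No share of cells stood apart from its group by Dixon's outlier check among the 6 P60 saline or the 6 P60 cocaine libraries. The 3 P21 libraries were too few for this check.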

How the results depend on the processing

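The number of genes that changed with age, 151, was 65 with DESeq2 (1361 adjusted p not given), 299 with no filter on low counts, 265 with all 12 P60 libraries, 83 with the P60 cocaine libraries, 96 with P21 libraries 2 and 3 summed, 38 with cells thinned to 2000 UMIs and 31 with the Pthlh cells alone. Leaving out each library gave 55 to 392, with 55 without library 11, 392 without P21 library 1, 70 without P21 library 2 and 83 without P21 library 3. In the other inhibitory neurons DESeq2 called 631 genes in place of 1010. The interaction, 42 genes, gave 51 with DESeq2, 119 with the library as a replicate block, 68 against Inhib_7 alone and 8 to 94 without each library, with 8 without library 11, 23 without library 7 and 94, 20 and 18 without P21 libraries 1, 2 and 3. The cocaine comparison, 2 genes, gave 0 with DESeq2 (2 at an unadjusted p under 0.05), 0 without pooling (74 at an unadjusted p under 0.05), 1 without the time term and 0 to 31 without each library. There it was 0 without library 11 or 12 (45 and 56 at an unadjusted p under 0.05), 1 without library 9 or 10, 4 without library 7 and 31 without library 8. The causes were not tested.

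The cocaine difference in share ran from -0.0733 to 1.21 percentage points without each library, and the difference by age from 10.9 to 17.1. The interaction of Adcy2 ran from -3.23 to 5.82. Pvalb in P60 Inhib_6 was 1062 CPM in the saline units alone. Of the fits for named genes by age in which the gene was tested, 256 kept their call and direction and 53 lost the call. For the interaction 101 kept it, 76 lost it and 1 was reversed. Fits in which a gene had too few UMIs to be tested are not in these counts. Of 20 named genes by age, 1 was called in every alternative fit that tested it, and of 18 in the interaction 0 were. The few P60 cells, 44 in all and 13 and 9 in the saline units of the age fit, limit the comparisons of Inhib_6. The block, chosen after the data were seen, pairs the 2 cell groups of a library. No paired analysis was possible between ages or treatments because replicate numbers follow accession order and pair no libraries.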
